A study of Mus musculus with 6 samples.

Results

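Glycolysis turns glucose into pyruvate in the cytosol, and cells that run it fast pass the pyruvate on to lactate and export it. Many of its genes are induced by hypoxia-inducible factor (HIF), a transcription factor whose alpha subunit is hydroxylated on prolines when oxygen is present, bound by the VHL protein and degraded. In dendritic cells, glycolysis is known to rise on activation. The genes described are 33 named genes, all found among the 14912 gene symbols of the deposited table. They comprise 19 genes of the route from glucose uptake to lactate export and 14 hypoxia-inducible or HIF-regulating genes outside glycolysis. They are defined by name, not by a value in the table. These genes, the other gene lists and the tests were, however, chosen with earlier results of these data known.

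The libraries came from bone marrow cultures of wild-type C57BL/6J mice, labelled as bone marrow derived dendritic cells. In the midkine group 3 cultures received recombinant human midkine, a secreted heparin-binding growth factor, at 10 ng/ml for the last 2 days. In the control group, 3 cultures received no midkine. Both groups grew in medium with 50 ng/ml of FLT3LG, a cytokine on which dendritic cell precursors depend, which was renewed on day 7. The labels name no sorting of cells and do not say whether replicates came from separate mice. The p-values therefore measure only how far these 6 libraries spread, which may be technical. Gene expression was read from the 3' ends of transcripts, and a normalised read count is the number of reads of a gene divided by the authors' size factor of the library. Midkine libraries held 5685055 to 6453768 reads and control libraries 5089338 to 5532055. All 8 dendritic cell markers of a named list were measured, with summed normalised counts of 58332 to 62416 in midkine and 57965 to 62147 in control libraries. Of these 8, 2 were called higher and 2 lower, with log2 fold changes of -0.73 to 0.83. Markers of other cells were present too. Those of stroma summed to 36220.0 to 39108 in midkine and 13869 to 17173 in control libraries, and those of plasmacytoid dendritic cells to 1516 to 1608 in midkine and 5603 to 5807 in control libraries. Macrophage markers summed to 11146 to 12396 in midkine and 3741 to 5599 in control libraries, a sum made up mostly of Gpnmb, while of the 9 genes 3 rose, 3 fell and 3 were not called, with a median log2 fold change of -0.21. Type 1 dendritic cell markers (1 of 8 higher and 7 lower) summed to 3909 to 5040.2 in midkine and 10407 to 12134 in control libraries. Neutrophil markers (0 of 5 tested higher and 3 lower) summed to 53.2 to 78.9 in midkine and 543 to 677 in control libraries. Type 2 dendritic cell markers (5 of 8 higher and 2 lower) summed to 4303 to 4842 in midkine and 3843 to 4071 in control libraries, and megakaryocyte markers (3 of 4 higher and 1 lower) to 340.0 to 409.6 in midkine and 373 to 537 in control libraries. Over all genes tested, 20.9% were called higher and 21.8% lower by the test described below. In such bulk samples, fewer cells of a type and less RNA per cell cannot be told apart. The part of these markers in the results was not tested.

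With midkine, most of the genes rose, from glucose uptake to lactate export. Of the 19 glycolytic genes, all of which passed the minimum mean of 10 normalised counts, 16 were called higher and 0 lower by limma at a Benjamini-Hochberg adjusted p under 0.05. No glycolytic gene was lower at an unadjusted p under 0.05, and edgeR and DESeq2 each called 16 higher and 0 lower. Of the 13 tested hypoxia genes, 8 were called higher and 1 lower. Over all 11844 genes tested, 42.7% were called, 20.9% higher and 21.8% lower. The median log2 fold change was 0.57 for the glycolytic and 0.34 for the hypoxia genes, against -0.0086 for all genes tested. At least 2-fold higher calls were made for 5 glycolytic genes, namely Slc2a1, Hk3, Aldoa, Eno2 and Slc16a3, and for 3 hypoxia genes, namely Bnip3, Egln3 and P4ha2, where the share over all genes was 6.22%. The counts depended on the scaling between libraries. With scaling to total counts, which moved the median of all genes to -0.26, 10 glycolytic genes were higher and 1 lower, and 5 hypoxia genes were higher and 3 lower, where 10.8% of all genes were higher and 40.7% lower. Relative to the median of all genes the glycolytic median was 0.58 with the authors' size factors and 0.57 with scaling to total counts. Rescaling a library moves all its genes by nearly the same amount, so these 2 values could hardly differ. The mitochondrial ribosomal RNA share, which enters the totals, was 19.8% of reads in midkine and 9.63% in control libraries. With totals that leave out ribosomal RNA, the median of all genes was -0.086, with 2023 of 11844 genes higher and 3178 lower. There 14 glycolytic genes were higher and 0 lower, and 7 hypoxia genes were higher and 1 lower. The part of mitochondrial ribosomal RNA alone was not tested.

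The share of all reads taken by a group of genes restates scaling to total counts as a sum, so it is not separate support. The 19 glycolytic genes together took 0.264%, 0.309% and 0.264% of the reads in the midkine libraries, against 0.201%, 0.238% and 0.215% in the control libraries. A few genes weigh most in this sum. Pgam1 had 12093 reads in midkine and 7078 in control libraries and Aldoa 7723 and 3388, where all 19 had 51096 and 34665. The hypoxia genes took 0.0814%, 0.0832% and 0.0770% in midkine and 0.0667%, 0.0735% and 0.0664% in control libraries. For both sums the groups did not overlap, and the exact two-sided permutation p was 0.1, the smallest that 3 against 3 samples can give. Midkine replicate 2 was the highest midkine library for 18 of the 32 tested genes, and control replicate 1 the lowest control library for 18.

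**Figure D1:**
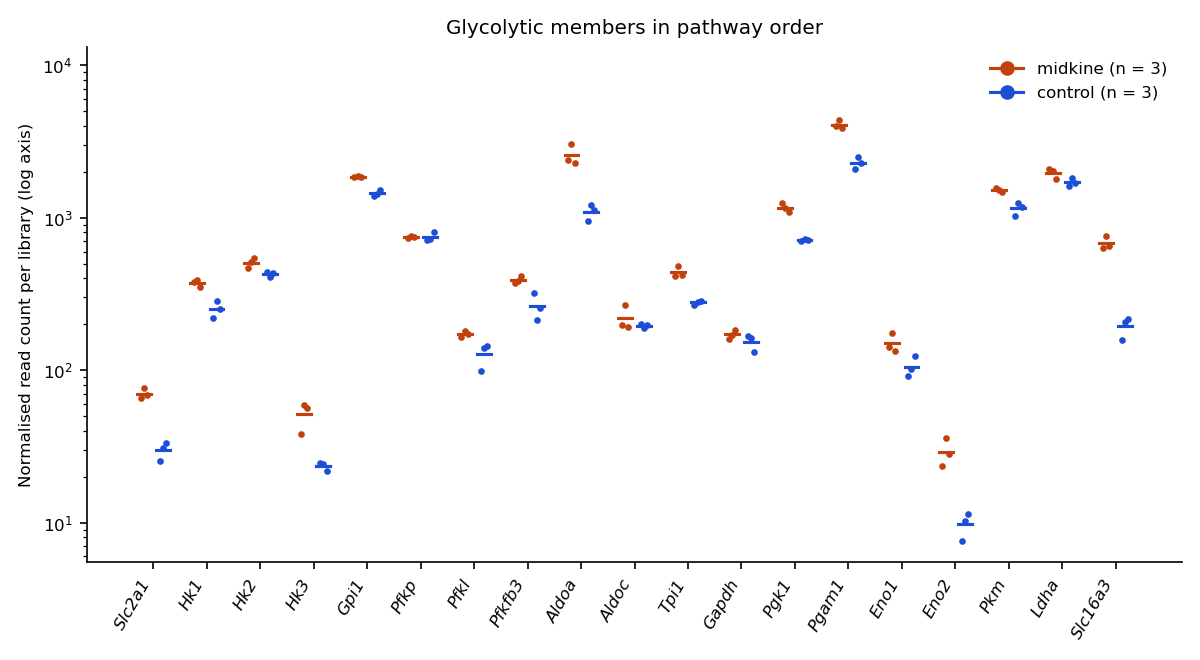
Normalised read counts (log axis) of the 19 glycolytic genes in pathway order, for 3 midkine libraries (left of each pair) and 3 control libraries (right), with a line at each mean. The groups do not overlap for 15 of the 19 genes, and they overlap for Pfkp, Aldoc, Gapdh and Ldha.

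Hypoxia response elements, the sites that HIF binds, have a core of ACGTG or GCGTG. Promoter windows of 250 bases before to 50 bases after a start were found in RefSeq (GRCm38.p6) for 31 of the 33 genes, and some genes have several. A RefSeq start can lie inside the gene position given below from GENCODE, as for Slc16a3 and P4ha2. Some windows hold bases of annotated exons, as that of Slc16a3 does. Either motif, on either strand, was present in 34 of 45 windows (75.6%), against 62.5% of the windows of all genes tested and 43.8% of all promoter windows. A palindromic CACGTG counts once on each strand. By gene, 27 of 31 (87.1%) had a match, against 68.5% of 8837 tested genes and 46.7% of 27025 genes in all. The windows of Eno2, Gpi1, Tpi1 and Vhl had none, of which the first 3 rose and Vhl fell. Matches were also present for Pfkp, Aldoc, Gapdh, Mxi1 and Kdm3a, which were not called. A match is a description of letters and not evidence of a bound site. Shown are the 250 bases before the start for 5 genes that rose, 4 of them at least 2-fold, with the matches in capitals and each sequence read 5′ to 3′ on the strand of the gene. Slc16a3 (chr11:120948817-120949066, plus strand) has both matches close to the start, P4ha2 (chr11:54100674-54100923, plus strand) has 3 in this stretch, Bnip3 (chr7:138909507-138909756, minus strand) has 5, of which a pair forms a palindrome, Egln3 (chr12:54203875-54204124, minus strand) has 1 at the far end, and Pgk1 (chrX:106186850-106187099, plus strand) has 2.
Slc16a3: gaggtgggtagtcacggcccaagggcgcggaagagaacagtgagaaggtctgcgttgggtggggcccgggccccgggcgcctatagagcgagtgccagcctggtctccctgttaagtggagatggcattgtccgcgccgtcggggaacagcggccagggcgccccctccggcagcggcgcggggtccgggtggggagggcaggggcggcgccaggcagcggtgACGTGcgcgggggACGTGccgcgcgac
P4ha2: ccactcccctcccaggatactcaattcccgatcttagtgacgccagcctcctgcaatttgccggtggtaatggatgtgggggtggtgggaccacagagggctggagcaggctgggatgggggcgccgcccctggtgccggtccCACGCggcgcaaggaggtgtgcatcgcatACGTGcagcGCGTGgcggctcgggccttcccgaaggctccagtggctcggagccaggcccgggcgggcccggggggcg
Bnip3: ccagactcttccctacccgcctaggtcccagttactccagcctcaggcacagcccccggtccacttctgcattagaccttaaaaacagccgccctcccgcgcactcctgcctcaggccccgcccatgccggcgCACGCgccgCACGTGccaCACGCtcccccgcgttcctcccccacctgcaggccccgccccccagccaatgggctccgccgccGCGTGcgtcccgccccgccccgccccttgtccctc
Egln3: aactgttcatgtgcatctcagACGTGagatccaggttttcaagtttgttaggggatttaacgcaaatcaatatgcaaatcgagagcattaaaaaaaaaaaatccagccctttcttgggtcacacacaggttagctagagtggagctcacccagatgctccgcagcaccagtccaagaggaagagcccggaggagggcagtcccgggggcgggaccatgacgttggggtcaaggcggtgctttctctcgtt
Pgk1: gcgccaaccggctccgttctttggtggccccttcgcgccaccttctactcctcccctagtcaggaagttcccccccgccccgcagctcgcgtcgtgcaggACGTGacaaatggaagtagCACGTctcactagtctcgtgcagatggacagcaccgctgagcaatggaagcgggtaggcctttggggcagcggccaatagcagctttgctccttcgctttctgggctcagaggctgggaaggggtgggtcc

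Transcripts of the glucose transporter gene Slc2a1 and of the hexokinase genes Hk1 and Hk3 were higher with midkine, and those of Hk2 depended on the processing. Slc2a1, which encodes the glucose transporter GLUT1 (chromosome 4, 119108711 to 119137983 of GRCm38), had 65.4, 77.0 and 68.6 normalised counts in midkine libraries, against 25.5, 30.8 and 33.4 in control libraries. It rose 2.32-fold (log2 fold change 1.21, SE 0.19, limma adjusted p = 1.4e-05). The lowest midkine library was well above the highest control library. Of the hexokinases, which trap glucose as glucose 6-phosphate, Hk3 had 38.3, 59.6 and 56.5 in midkine and 24.6, 24.3 and 21.9 in control libraries, with midkine replicate 1 nearest to the controls (log2 fold change 1.07). Hk1, the broadly expressed form, had 376, 390.4 and 352 in midkine and 220.1, 284 and 253 in control libraries (0.57). Hk2, the form most often named as a HIF target, was at 471 to 542 in midkine and 408 to 442 in control libraries, a smaller log2 fold change of 0.24. The call of Hk2 was lost without midkine replicate 2 (0.24) or 3 (0.20) or without control replicate 2 (0.21) or 3 (0.26), without a variance trend, and with totals that leave out ribosomal RNA (0.17), and its sign turned with scaling to total counts (-0.013).

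The next steps, up to the splitting of fructose bisphosphate, were less even. Gpi1, the isomerase, had 1855, 1869 and 1844 normalised counts in midkine and 1396, 1438 and 1519.5 in control libraries. It rose 1.28-fold with the authors' size factors (log2 fold change 0.36), a call lost with scaling to total counts (0.10). Phosphofructokinase commits sugar to glycolysis, and its 2 measured member genes differed. Pfkp was at 739 to 761 in midkine and 710.3 to 807 in control libraries, so that its midkine values lay within the control range (log2 fold change 0.0040). Scaling to total counts gave -0.25 for Pfkp, a call in the lower direction, and its transcript end overlaps Pitrm1 on the other strand. Pfkl was at 164.5 to 180.5 in midkine and 98.2 to 144.9 in control libraries and rose (0.45), a call lost without control replicate 1 (0.27), without a variance trend and with scaling to total counts (0.19). Pfkfb3, the enzyme that makes the activator of phosphofructokinase, had 371, 387 and 416 in midkine and 322, 215 and 255 in control libraries (log2 fold change 0.58, SE 0.12, limma adjusted p = 0.00023). Aldoa, the main aldolase, had 2375, 3055 and 2301 in midkine and 953, 1217 and 1120.4 in control libraries, a 2.34-fold rise (limma adjusted p = 1.9e-10). Its relative Aldoc, known best from brain, was at 192 to 268 in midkine and 190.3 to 201 in control libraries and was not called (0.14). The sign for Aldoc turned without midkine replicate 2 (-0.0083), its highest library, and with scaling to total counts (-0.11).

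In the lower part of the pathway, Tpi1, Pgk1, Pgam1, Eno1, Eno2 and Pkm rose, each with every midkine library above every control library. Tpi1, triose phosphate isomerase, had 415, 481 and 422 normalised counts in midkine and 268, 282 and 284.5 in control libraries (log2 fold change 0.65), and its exons overlap Spsb2 on the other strand. Pgk1, phosphoglycerate kinase, the first ATP-yielding step, had 1242, 1156.5 and 1095 in midkine and 705, 720.2 and 711 in control libraries (1.63-fold, log2 SE 0.079, limma adjusted p = 6.7e-08). Pgam1, phosphoglycerate mutase (chromosome 19, 41911923 to 41918660), had 3971, 4357.5 and 3848 in midkine and 2087, 2502 and 2278 in control libraries (1.77-fold, limma adjusted p = 5.1e-09). The spread within each group was small beside these differences. Of the enolases, Eno2 had 23.7, 35.7 and 28.2 in midkine and 7.56, 10.3 and 11.5 in control libraries, resting on 88 midkine and 30 control reads in all (log2 fold change 1.49, SE 0.31). Eno1 had 142, 175 and 134 in midkine and 91.6, 102 and 123 in control libraries (0.51), and scaling to total counts gave 0.25 without a call. The last 300 bases of an Eno1 transcript are nearly identical to the annotated gene Eno1b, so its reads could be split and its level is uncertain. Another enolase gene, Eno3, from the other glycolysis genes below, was not called (log2 fold change 0.54, limma adjusted p = 0.068). It had 132 midkine and 96 control reads, and its groups did not overlap. Pkm, pyruvate kinase, had 1575, 1518.5 and 1469.9 in midkine and 1024, 1250.2 and 1176 in control libraries (0.41), and scaling to total counts gave 0.15 without a call.

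Gapdh, often used as a reference gene, was not called. It had 161, 171 and 184 normalised counts in midkine and 168, 161 and 132 in control libraries, and the groups overlapped (log2 fold change 0.16, SE 0.12, limma adjusted p = 0.296). Scaling to total counts gave -0.092 for Gapdh. At its transcript end Gapdh shares at least 97% identity over at least 100 bases with 77 other annotated genes, 75 of them pseudogenes, and 1 of the 77 was in the deposited table. How the authors' counting treated reads that match several places is not given in the sources used here, so the level of Gapdh is uncertain.

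At the end of the route, the lactate exporter gene had the highest fold change of the 19 glycolytic genes, and the call of lactate dehydrogenase depended on single libraries. Slc16a3, the lactate exporter MCT4 (chromosome 11, 120948480 to 120960868), had 629.9, 755 and 655 normalised counts in midkine and 159, 206 and 217 in control libraries. It rose 3.51-fold (log2 fold change 1.81, SE 0.11, limma adjusted p = 1.1e-12), and 98.7% of all genes tested had a lower log2 fold change. Both matches of the Slc16a3 promoter sequence, shown above, lie 27 and 14 bases before its RefSeq start, which is inside this gene position. Ldha, which makes lactate from pyruvate, had 2089, 2038 and 1799 in midkine and 1619, 1824 and 1690.5 in control libraries, and midkine replicate 3 lay below control replicate 2. Its log2 fold change was 0.21 (SE 0.079, limma adjusted p = 0.038). The call of Ldha was lost without midkine replicate 1 (0.16) or 2 (0.18), without control replicate 1 (0.17) or 3 (0.20), with quantile normalization (0.18), without a variance trend and with totals that leave out ribosomal RNA (0.13), and scaling to total counts turned its sign (-0.053). The difference between the changes of Slc16a3 and Ldha was not tested. Pdk1, a mitochondrial kinase that inhibits pyruvate dehydrogenase and a HIF target, had 133, 139 and 127 in midkine and 107, 113 and 100.1 in control libraries. The groups of Pdk1 did not overlap, but its call (log2 fold change 0.32, limma adjusted p = 0.048) did not hold without any one of the 6 libraries (0.28 to 0.36), in DESeq2 (0.33), without the minimum mean, with scaling to total counts (0.06) or with totals that leave out ribosomal RNA (0.24).

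**Figure D2:**
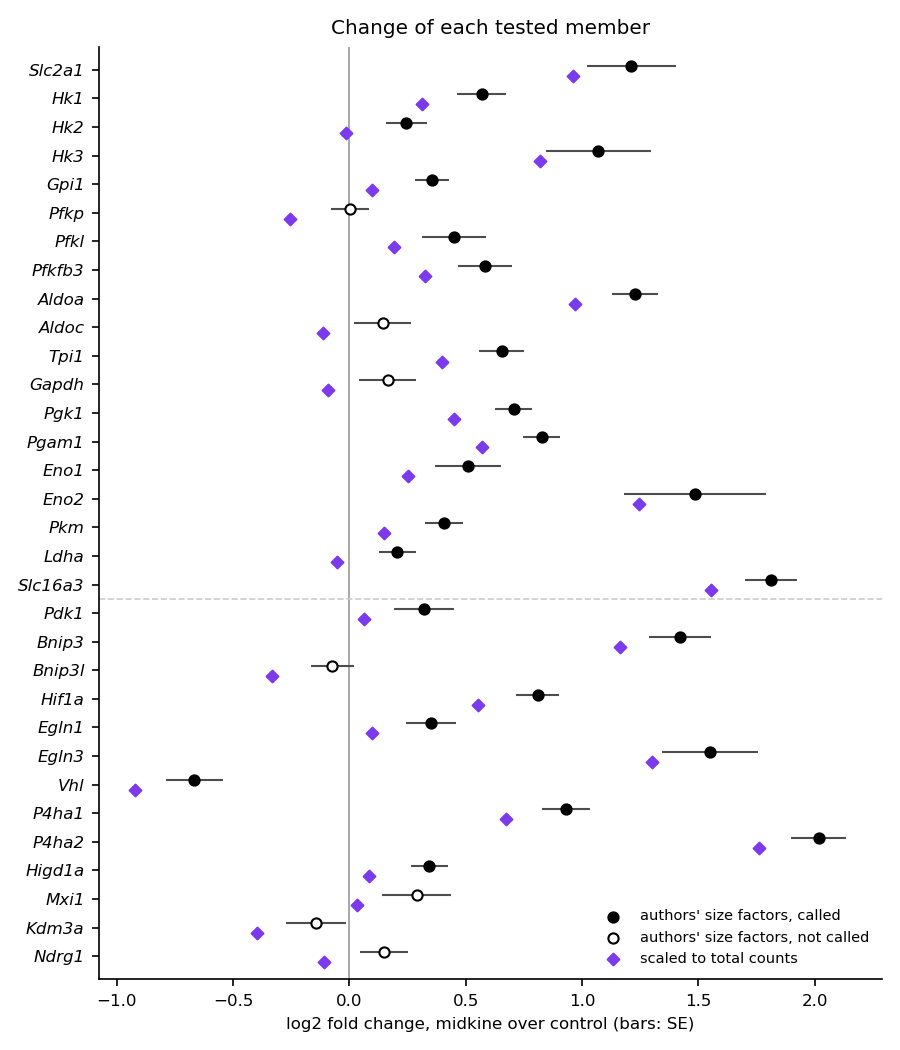
Log2 fold change, midkine over control, of the 32 tested genes with bars of 1 SE (filled circles called, open circles not called), and the value with scaling to total counts (diamonds). Slc16a3 and P4ha2 lie farthest to the right at 1.81 and 2.02, Vhl farthest to the left at -0.67, and diamonds lie to the left of the circles throughout.

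The regulators of HIF moved in different directions. Hif1a, the alpha subunit (chromosome 12, 73901375 to 73947530), had 1153, 1009.9 and 1044 normalised counts in midkine and 525, 656 and 654.5 in control libraries (1.75-fold, log2 SE 0.091, limma adjusted p = 7.6e-08). Vhl, the subunit of the ubiquitin ligase that recognises hydroxylated HIF (chromosome 6, 113623959 to 113631633), had 124, 107 and 125 in midkine and 205, 171 and 192 in control libraries. It fell by 0.67 on the log2 scale (SE 0.12, limma adjusted p = 9.8e-05) and was the only gene of the 32 tested that was called lower with the authors' size factors. Every midkine value of Vhl was below every control value, and it was called lower under all alternatives run (log2 fold change -0.92 to -0.60). Of the HIF prolyl hydroxylases, which are oxygen sensors and some of which HIF itself induces, Egln3 had 73.2, 66.9 and 74.7 in midkine and 18.9, 24.3 and 29.2 in control libraries (2.93-fold, limma adjusted p = 1.1e-06). Egln1, the main HIF hydroxylase, was at 305 to 358 in midkine and 237 to 302 in control libraries (log2 fold change 0.35), a call lost without control replicate 3 (0.27), without a variance trend and with scaling to total counts (0.09).

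**Figure D3:**
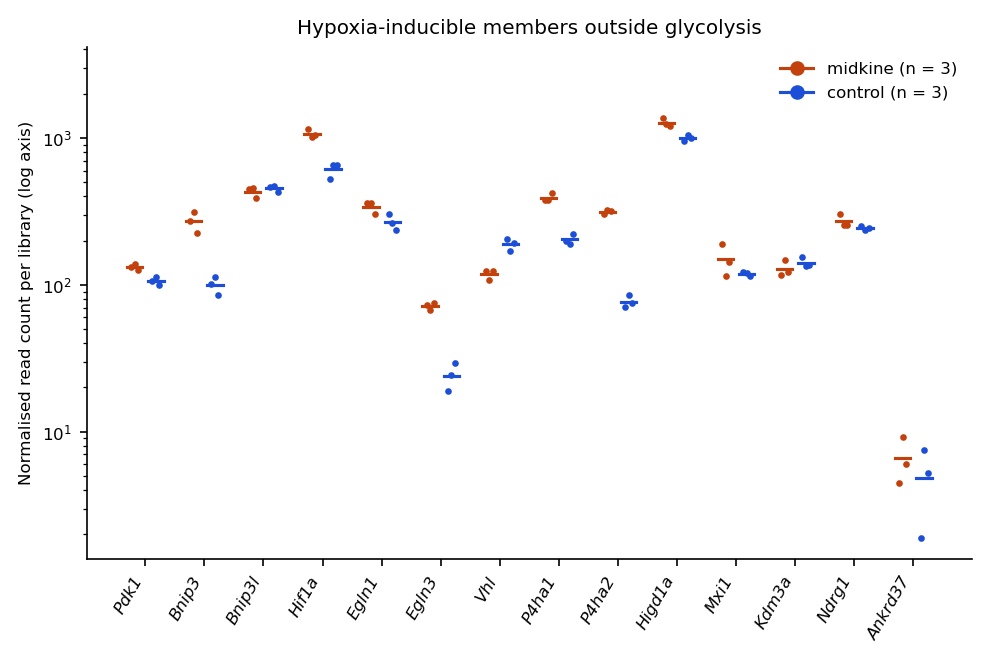
Normalised read counts (log axis) of the 14 hypoxia genes outside glycolysis, for 3 midkine libraries (left of each pair) and 3 control libraries (right), with a line at each mean. P4ha2, Egln3 and Bnip3 are higher in all midkine libraries, Vhl is lower, and Ankrd37 has the lowest values, 1.89 to 9.16.

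Among HIF targets outside glycolysis, both genes of collagen prolyl hydroxylase rose, and P4ha2 had the highest fold change of all 32 tested genes. P4ha2 (chromosome 11, 54100095 to 54131665) had 303, 323 and 316 normalised counts in midkine and 70.8, 84.9 and 75.0 in control libraries, a 4.05-fold rise (log2 SE 0.12, limma adjusted p = 5.8e-13). P4ha1 had 377, 376 and 419 in midkine and 200.2, 190.3 and 223 in control libraries (1.91-fold, limma adjusted p = 4.2e-08). Both encode alpha subunits of the enzyme that hydroxylates collagen. Collagen genes are in the stromal list, of which 6 of 8 tested genes rose and 1 fell, and Col1a1 and Sparc had log2 fold changes of 1.68 and 1.07. The part of stromal cells in the rise of P4ha1 and P4ha2 was not tested.

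Of the mitochondrial proteins, Bnip3, a receptor that marks mitochondria for autophagy (chromosome 7, 138890836 to 138909519), had 274, 314 and 224 in midkine and 101, 114 and 85.5 in control libraries (2.68-fold, log2 SE 0.14, limma adjusted p = 3.9e-09). An annotated antisense gene, Gm45507, shares 3' end sequence with Bnip3. Its relative Bnip3l, known for clearing mitochondria from maturing red cells, was at 391 to 454 in midkine and 426 to 467 in control libraries and was not called (log2 fold change -0.07). Scaling to total counts gave a call of -0.33 for Bnip3l. Erythroid markers were near 0, the 4 measured genes summing to 1.13 to 8.25 normalised counts in midkine and 0.945 to 3.13 in control libraries. Higd1a, a small inner membrane protein, had 1360.1, 1247 and 1211 in midkine and 959.6, 1047 and 999.5 in control libraries (0.34), and scaling to total counts gave 0.09 without a call.

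Among the HIF targets, Ndrg1, Mxi1 and Kdm3a were not called. Ndrg1, a stress-responsive gene, was at 254 to 302 in midkine and 235 to 251 in control libraries and was not called (log2 fold change 0.15, or -0.11 with scaling to total counts), although its groups did not overlap. Groups that do not overlap were found for 15 glycolytic genes, all higher with midkine, and for 10 hypoxia genes, 9 of them higher. Over all genes tested the share was 51.3%, with 25.1% higher and 26.2% lower. Mxi1, which encodes a MYC antagonist, had 190.4, 114.5 and 142 in midkine and 122, 121 and 115 in control libraries. Midkine replicate 1 was its highest and midkine replicate 2 its lowest library, and Mxi1 was called only without midkine replicate 2 (log2 fold change 0.46, against 0.29 with all libraries). Kdm3a, a histone demethylase gene, was at 116 to 147 in midkine and 134 to 154 in control libraries (-0.14, and -0.40 and called with scaling to total counts). Ankrd37 did not reach the minimum mean, with 20 reads in midkine and 15 in control libraries, and was not tested.

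A ratio between relatives within 1 library depends little on the scaling between libraries. For 7 of 9 pairs the midkine and control ratios did not overlap, with an exact two-sided permutation p of 0.1, the smallest possible, and 0.129 after Benjamini-Hochberg adjustment over the 9 pairs. The log2 ratio of Bnip3 to Bnip3l was -0.68 ± 0.14 in midkine and -2.18 ± 0.14 in control libraries (SD, n = 3 each), a difference of 1.50. That of Egln3 to Egln1 was higher by 1.20, that of P4ha2 to P4ha1 by 1.09 and of Eno2 to Eno1 by 0.98. The ratio of Aldoc to Aldoa fell to -3.55 ± 0.040 in midkine, against -2.47 ± 0.22 in control libraries (SD, n = 3 each). Pfkp to Pfkl was lower by 0.44 and Hk2 to Hk3 by 0.83. For Hk2 to Hk1 (-0.32) and Hk3 to Hk1 (0.50) the groups overlapped (exact permutation p = 0.2 each, n = 3 each). The sign of a ratio compares reads of different genes and is not read as a difference in level.

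**Figure D4:**
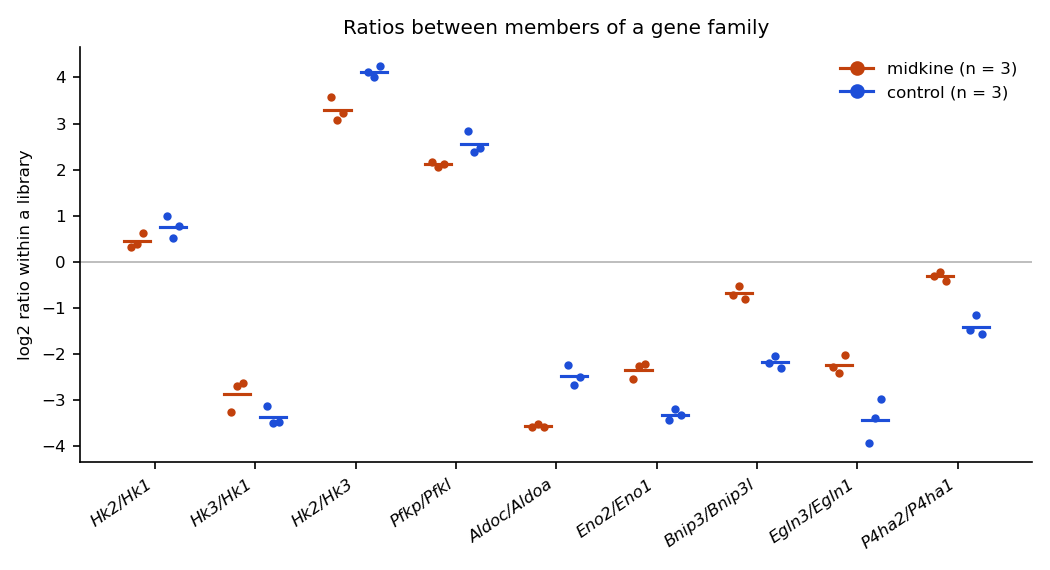
Log2 ratio of normalised counts (value + 1) between relatives in each library, for 3 midkine libraries (left of each pair) and 3 control libraries (right), with a line at each mean. The groups overlap for Hk2/Hk1 and Hk3/Hk1 and are apart for the 7 other pairs.

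The neighbouring pathways did not move as a block. Over all genes tested, 20.9% were called higher and 21.8% lower. Counts near these shares are not read as a result about a list. Of 14 other tested glycolysis genes 5 rose and 1 fell (median log2 fold change 0.39), and 3 rose without midkine replicate 2. Pgm1, phosphoglucomutase, rose by 0.94, Galm, which interconverts glucose anomers, by 1.55 and the transporter gene Slc2a6 by 0.75. Adpgk, an ADP-dependent glucokinase, fell by 0.67, and its exons overlap Bbs4 on the other strand, as those of Pgm1 overlap Itgb3bp. Of 7 pentose phosphate genes 5 were called lower and 1 higher (median -0.26). The lower calls rested on single libraries: without control replicate 2 there were 0 of them, without midkine replicate 3 or control replicate 3 there were 2, without midkine replicate 2 or control replicate 1 there were 3, and without a variance trend there was 1. The oxidative branch was split, with Pgd at 0.39 and G6pdx, its first enzyme, at -0.52. Exons of G6pdx overlap Ikbkg on the other strand. The call of G6pdx was lost without control replicate 2, that of Pgd with scaling to total counts. Tkt and Pgls were called at -0.26 each, calls lost without control replicate 2 or 3, and for Pgls also without midkine replicate 3. Of 16 tricarboxylic acid cycle genes 2 fell, Idh3a (-0.68) and Fh1 (-0.58), and limma called none higher, with 1 higher at an unadjusted p under 0.05, 1 higher in edgeR and 0 in DESeq2. Of 11 genes of pyruvate entry into mitochondria 2 rose and 2 fell. Mpc1, a subunit of the pyruvate carrier, rose by 0.62 and Pdha1, a pyruvate dehydrogenase subunit whose exons overlap Map3k15 on the other strand, by 0.42, a call lost with scaling to total counts, and the phosphatase gene Pdp2 (-0.54) and the kinase gene Pdk3 (-0.30) fell. The call of Pdk3 was lost with quantile normalization, in DESeq2, without midkine replicate 1 or 3 and without control replicate 2 or 3. Of 3 tested gluconeogenesis genes only Pck2 was called (1.13). With scaling to total counts 3 of 14 other glycolysis genes rose and 3 fell. Of 11 genes of pyruvate entry 1 rose and 5 fell there. None of the pentose phosphate or tricarboxylic acid cycle genes rose, and 6 of 7 and 6 of 16 fell. Over all genes 10.8% were higher and 40.7% lower with that scaling.

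Of 29 other HIF targets tested, 19 rose and 3 fell (median log2 fold change 0.84, and 18 and 4 at 0.58 with scaling to total counts). The shares over all genes were 20.9% higher and 21.8% lower, or 10.8% and 40.7% with scaling to total counts. Among those that rose were Ier3 (2.86), Ddit4 (2.52) and Vegfa (2.35), which encodes a growth factor of blood vessels. Ddit4, an inhibitor of mTOR signalling, had 327, 335 and 343 normalised counts in midkine and 58.6, 58.8 and 55.2 in control libraries. Tfrc, the transferrin receptor (-1.43), Plin2, a lipid droplet protein (-0.88), and Ppfia4 (-0.24) fell, and these were named after their values were seen. The call of Ppfia4 was lost without midkine replicate 3 or without control replicate 2 or 3. Several of these genes also respond to signals other than oxygen. Of 8 other genes of HIF subunits and HIF degradation, Epas1, which encodes another HIF alpha subunit, was at 97.9 to 119 in midkine and 80.3 to 84.4 in control libraries and was called higher (0.39). The call of Epas1 was lost with scaling to total counts (0.14), also with ribosomal RNA left out of the totals (0.32), in DESeq2, without midkine replicate 1 or 2 and without control replicate 1 or 2. Rbx1, a subunit of the ligase that holds VHL, had a log2 fold change of -0.28 and was called lower. Arnt, the partner of HIF alpha subunits, was not called (0.22).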

How the data were processed

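Per the labels, 500 ng of total RNA from each of 6 cultures (RNA integrity numbers of 5 to 10) went into a QuantSeq FWD kit, which reads transcripts at their 3' ends. The submitters' processing notes name TopHat2 2.0.10, HTSeq, Bowtie 1.0.0, DESeq2, SAMtools 0.1.19 and FastQC 0.11.0, and the builds GRCm38 and mm10. Neither the gene annotation nor whether strand was used in counting is given in the sources used here. The authors deposited a signal table, that is, reads per gene over the size factor of each library. Every value was a whole multiple of the value of 1 read (0.916 to 1.13) within 1e-06 reads, so whole reads were recovered. In midkine replicate 3 that value is close to 1.

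Groups and replicate numbers came from the titles. limma 3.58.1 (variance trend, R 4.3.3) was fitted to log2(value + 1) of genes whose mean reached 10, which understates changes of low genes, adjusted over all 11844 genes. The fit was tried on simulated counts in which few genes changed and all genes had the same spread between replicates. That setting differs from these data, so the trial does not give the error rate here. Alternatives were pseudocounts of 0.5 and 5, other filters, 4 other scalings, no trend, a replicate block, edgeR 4.0.16 and DESeq2 1.42.0 on recovered reads (2585 genes higher and 2572 lower in edgeR, 2067 and 2021 in DESeq2), and leaving out each library. Positions are from GENCODE vM21 (GRCm38), in which exons of 4 members overlap a listed gene on the other strand. Python 3.11.15, SciPy 1.17.1 and matplotlib 3.10.9 made tables and figures.

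Members, lists and tests were chosen with earlier results of these data known. Values in every library are given for genes that alone fill a step and for called genes with an absolute log2 fold change of at least 0.5, and from other lists up to 4 called genes with the smallest p, of which 1 is not reported here. The labels mark no separate animals. Replicates of a group differed by more than counting noise (chi-square per degree of freedom 2.31 to 10.6), so each library counted once. No molecular identifiers are named, so read numbers cover counting error only.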

Additional observations from a re-analysis of the deposited data

How the results depend on the processing

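Of 605 values of single genes under the alternatives, 557 kept their direction and their side of the threshold, 34 lost and 3 gained a call, and 11 changed sign. With scaling to total counts, 1283 genes were higher and 4817 lower (2481 and 2578 with the authors' size factors), with 10 glycolytic genes higher and 1 lower (16 and 0), 5 hypoxia genes higher and 3 lower (8 and 1), and 29 genes of the 7 pathway lists lower (14). The sign turned there for Hk2 (-0.013), Pfkp (-0.25), Aldoc (-0.11), Gapdh (-0.092), Ldha (-0.053) and Ndrg1 (-0.11), and for Pfkp also with ribosomal RNA left out of the totals (-0.074). Without a variance trend 13 glycolytic and 7 hypoxia genes were higher and 8 list genes were lower. Leaving out 1 library gave 8 to 13 lower list genes, with 8 without control replicate 2, and log2 fold changes of -0.033 to 0.058 for Pfkp and -0.0083 to 0.23 for Aldoc. The cause of these changes was not tested. Samples with the same replicate number did not deviate together (correlations -0.0097, 0.029 and -0.058), and the fit with a replicate block called 2519 genes higher and 2641 lower, 16 glycolytic genes higher and 7 hypoxia genes higher; of the 32 genes the block ended only the call of Pdk1. Depth limits Ankrd37 (35 reads in 6 libraries) and Eno2.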
